A study of Mus musculus with 6 samples.

Results

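Pyruvate enters mitochondria through a carrier built from *Mpc1* and *Mpc2*, and the pyruvate dehydrogenase complex (PDC) then converts it to acetyl-CoA. The 4 pyruvate dehydrogenase kinases (*Pdk1*, *Pdk2*, *Pdk3* and *Pdk4*) phosphorylate the E1 alpha subunit encoded by *Pdha1* and switch the complex off, and the phosphatases *Pdp1* and *Pdp2* remove the phosphate and switch it on. *Dlat* encodes the E2 core, to which the kinases bind. *Pdk4* is known as the fasting-induced kinase, which spares glucose while fatty acids are burned, and its transcription is known to respond to glucocorticoids, to PPAR and FOXO transcription factors and to insulin. These 10 genes were taken by their symbols from the 54532 genes of the deposited read counts, and each symbol matched 1 gene.

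The libraries were made from lungs of 3 mice with a dysfunctional glucocorticoid receptor (GRdim/dim) and 3 littermate wildtype mice (GR+/+), all on a 129/SvEv x C57BL/6 background and 10 to 16 weeks old. The GRdim/dim mice carry, in all cells, a point mutation that impairs dimerization of the receptor, which a read count per gene does not show. Every mouse of both genotypes had been anesthetized and ventilated, had undergone 1 h of hemorrhagic shock (HS), with the arterial pressure held at 35 mmHg, and then 4 h of resuscitation with re-transfused blood, colloids and norepinephrine. Lungs without HS were not part of these libraries, so the comparison is between genotypes after HS. Per the study's methods, the sexes were unevenly split, with 2 females among the 3 GR+/+ and 1 female among the 3 GRdim/dim mice, and which library came from which sex is not in the labels.

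The counts per library summed to 16361747 to 32082940 in GR+/+ and 15687734 to 24444604 in GRdim/dim lungs. Replicates are separate mice, and within a genotype their counts differed by 19.2 to 62.9 in chi-square per degree of freedom, against a value near 1 for pure counting noise. Levels are given as CPM, counts per 1000000 counts of the library, scaled by the TMM factors of edgeR. Fold changes are on the log2 scale, GRdim/dim against GR+/+, from edgeR's quasi-likelihood fit, with their SE and 95% interval. A differentially expressed gene (DEG) had an adjusted *p* (Benjamini-Hochberg) below 0.05 together with a log2 fold change above 0.5 or below -0.5. The 10 genes were put together with this contrast already known, in which *Pdk4* is a DEG, so their genotype differences are given as a description. All 10 passed the filter on low counts and were tested, and the lowest count of any of them in any library was 203, of *Pdp2* in GRdim/dim replicate 3.

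*Pdk4* was the 1 DEG of the 10, where 0.169% of the 16568 genes tested were DEGs with 0.0966% lower and 0.0724% higher in GRdim/dim lungs. Nothing is read from that count, since *Pdk4* was chosen with it known. The CPM values of the genotypes did not overlap for 2 of the 10, *Pdk4* and *Pdha1*, against 14.8% of all genes tested, and both were lower in GRdim/dim lungs, as were 7.05% of all genes. The log2 fold change was below 0 for 8 of the 10 and for 49.1% of all genes tested. The median log2 fold change was -0.22 over the 10 genes and 0.01 over all genes tested. In bulk lung RNA, fewer cells of a type and less RNA per cell cannot be told apart.

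**Figure D1:**
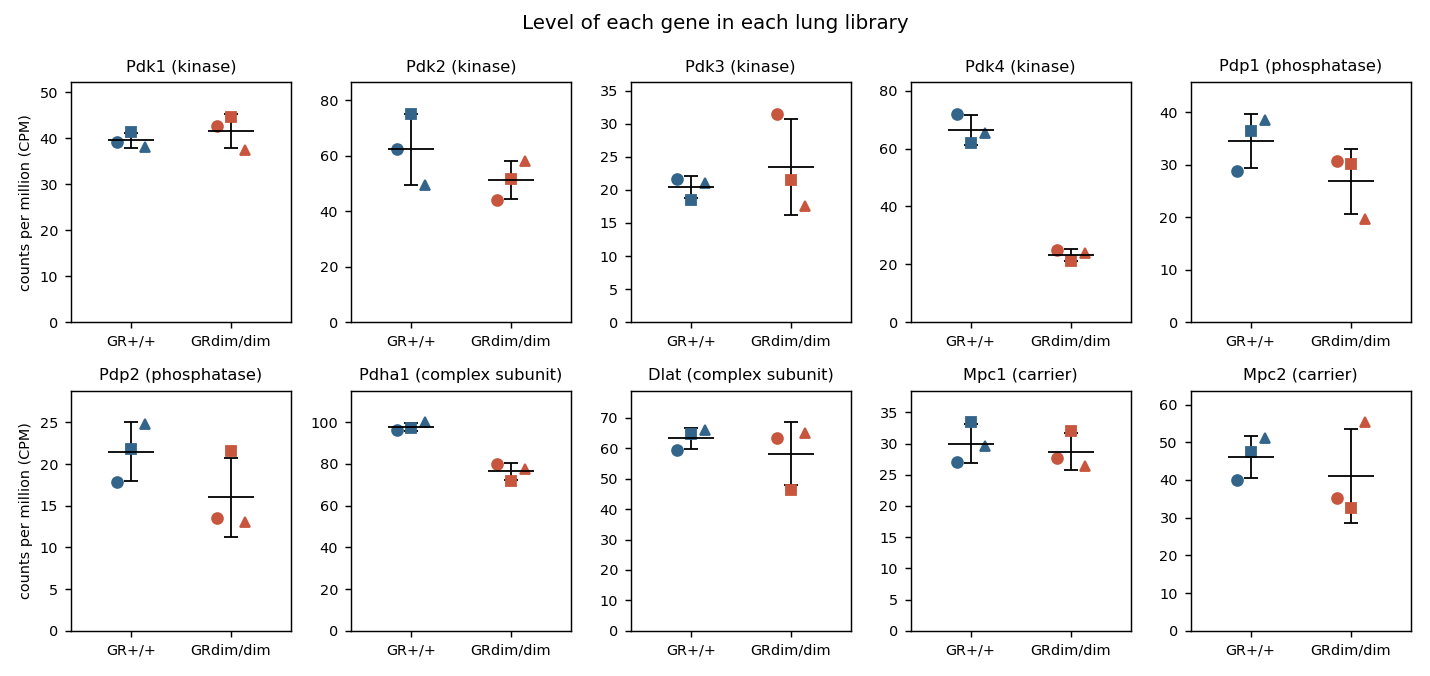
Level of each of the 10 genes in CPM (vertical axes, each starting at 0) in the GR+/+ (blue) and GRdim/dim (red) lungs. Each point is 1 mouse (circle, square and triangle for replicates 1, 2 and 3), and the horizontal line and bar are the mean and SD of 3 mice. Points of the genotypes are separate for *Pdk4* (21.1 to 25.1 CPM against 62.0 to 72.1 CPM) and for *Pdha1* (71.7 to 79.8 CPM against 96.2 to 99.8 CPM), and overlap for the other 8 genes.

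*Pdk4* (ENSMUSG00000019577) lies on the minus strand of chr6:5483351-5496309 in GRCm38, and its principal transcript has 11 exons. The promoter of *Pdk4* is shown because this gene carries the genotype difference. It comes from the RefSeq table of promoters (GRCm38.p6), which gives 250 bases before and 50 bases after each start, and the 219 bases printed are those upstream of all annotated exons, chr6:5496310-5496528, on the minus strand, 5′ to 3′. Capitals mark a match to the CCAAT box, here as ATTGG, with its first base at -131 relative to the RefSeq start.

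Pdk4 promoter: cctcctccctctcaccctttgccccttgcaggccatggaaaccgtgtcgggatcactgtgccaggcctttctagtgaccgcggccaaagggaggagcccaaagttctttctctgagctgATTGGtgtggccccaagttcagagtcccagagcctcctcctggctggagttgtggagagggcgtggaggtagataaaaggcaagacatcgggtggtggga

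Windows were found for 9 of the 10 genes, not for *Pdp1*, and for 12 starts in all. Both strands of each window were searched for the half-site of the glucocorticoid response element, AGAACA, which reads TGTTCT on the other strand. They were also searched for the full element, a pair of half-sites 3 bases apart, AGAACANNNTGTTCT. The half-site was present in 19% of all 32851 promoter windows and the full element in 3 of them, or 0.00913%. Among the 9 genes, only *Pdk1* held a half-site, with TGTTCT at -153 and at -138 of an alternative start, and none held the full element. These letters were therefore not in the *Pdk4* window, which covers only the bases next to its start. A CCAAT box in either orientation, a search added after the data had been seen, was present in 37.4% of all windows and in those of *Pdk2*, *Pdk3*, *Pdk4*, *Pdp2*, *Mpc1* and *Mpc2*.

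In GR+/+ lungs, *Pdk4* was at 72.1, 62.0 and 65.4 CPM in replicates 1, 2 and 3. In GRdim/dim lungs it was at 25.1, 21.1 and 23.8 CPM. The lowest GR+/+ value was above the highest GRdim/dim value, and the spread within a genotype was small, with a CV of 7.70% in GR+/+ and 8.67% in GRdim/dim lungs. The means of 3 mice were 66.5 ± 5.12 CPM and 23.3 ± 2.02 CPM (SD), a log2 fold change of -1.51 (SE 0.17, 95% interval -1.89 to -1.14). These levels rest on 1206, 1034 and 2060 counts in GR+/+ and on 465, 508 and 368 counts in GRdim/dim lungs. *Pdk4* was also a DEG with DESeq2, by which 1.7% of genes were DEGs. Left out in turn, GR+/+ replicate 1 or 2 ended the call in edgeR (adjusted *p* = 0.0506 and 0.0507) with log2 fold changes of -1.45 and -1.55, and the call held without any of the other 4 libraries.

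The other 3 kinases gave no DEG. *Pdk1* (chr2:71873224-71903858), known as a hypoxia-induced kinase, was at 39.1, 41.3 and 38.1 CPM in GR+/+ and at 42.7, 44.6 and 37.4 CPM in GRdim/dim lungs. GRdim/dim replicate 3 had the lowest level of all 6 libraries and replicate 2 the highest, so the genotypes overlapped. The log2 fold change was 0.07 (SE 0.17), and its 95% interval of -0.29 to 0.44 does not reach the DEG threshold of 0.5 in either direction.

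*Pdk2* (chr11:95026258-95041354), the kinase most widely expressed across tissues, was at 62.3, 75.1 and 49.3 CPM in GR+/+ and at 44.2, 51.6 and 58.1 CPM in GRdim/dim lungs. GR+/+ replicate 3 lay below GRdim/dim replicates 2 and 3. Its log2 fold change was -0.28 (SE 0.20, 95% interval -0.72 to 0.16). *Pdk3* (chrX:93764607-93832201), a kinase little inhibited by pyruvate, was at 21.6, 18.5 and 21.1 CPM in GR+/+ and at 31.5, 21.4 and 17.5 CPM in GRdim/dim lungs. GRdim/dim replicate 1 stood above every other library, and the CV of *Pdk3* was 30.8% in GRdim/dim against 8.18% in GR+/+ lungs. The log2 fold change of *Pdk3* was 0.21 (SE 0.24, 95% interval -0.33 to 0.74), and it was -0.058 without GRdim/dim replicate 1.

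**Figure D2:**
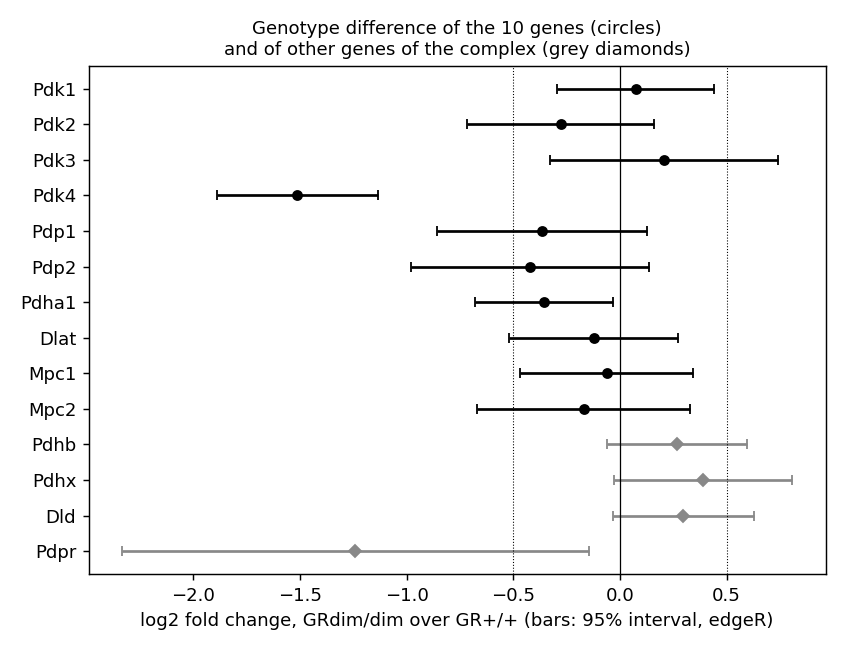
Log2 fold change (horizontal axis) of each of the 10 genes, GRdim/dim against GR+/+, from edgeR, with bars for the 95% interval. The interval of *Pdk4* (-1.89 to -1.14) lies apart from 0, that of *Pdha1* ends at -0.03, and the intervals of the other 8 circles include 0. Among the diamonds, only the interval of *Pdpr* (-2.33 to -0.15) lies apart from 0.

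The kinases can be compared with each other only per length. For this, counts were divided by the summed exon length given with the counts and scaled so that every library sums to 1000000 over all genes (TPM, a level per length). Transcripts of the 4 kinases shared 0 windows of 31 bases with each other. In GR+/+ lungs *Pdk4* made up 38.3, 32.7 and 39.4% of the summed TPM of the kinases, and in GRdim/dim lungs 18.4, 16.5 and 18.4%. The share of *Pdk4* was thus lower in each GRdim/dim library than in each GR+/+ library, with means of 36.8 ± 3.54% and 17.8 ± 1.09% (SD, n = 3), a difference of -19.0 percentage points.

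*Pdk2* took 36.7, 44.0 and 32.9% in GR+/+ and 35.9, 44.8 and 49.9% in GRdim/dim lungs. *Pdk3* took 15.7, 13.4 and 17.4% in GR+/+ and 31.7, 23.0 and 18.6% in GRdim/dim lungs. *Pdk1* took 9.36, 9.85 and 10.3% in GR+/+ and 14.1, 15.7 and 13.1% in GRdim/dim lungs. The shares sum to 100% within a library, so a lower share of *Pdk4* raises the others with no change in their own levels. *Pdk2* overlapped between the genotypes, and *Pdk1* and *Pdk3* did not. The kinase with the lowest share depends on the length used. With the summed exon length it was *Pdk1* in every library, and with the principal transcript it was *Pdk1* in GR+/+ and *Pdk4* in GRdim/dim libraries (14.4, 12.7 and 14.2%, against 16.5, 18.0 and 15.0% for *Pdk1*).

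**Figure D3:**
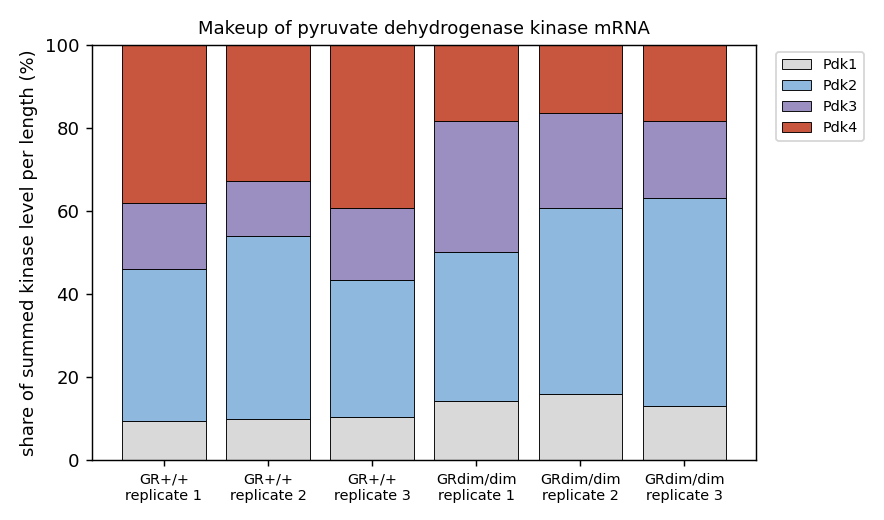
Share of each kinase (percent of the summed TPM of *Pdk1*, *Pdk2*, *Pdk3* and *Pdk4*, vertical axis) in each of the 6 lung libraries. *Pdk4* takes 32.7 to 39.4% in GR+/+ and 16.5 to 18.4% in GRdim/dim lungs, and *Pdk2* takes 35.9 to 49.9% in GRdim/dim lungs.

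The level of *Pdk4* over that of *Pdk2*, in TPM, was 1.04, 0.743 and 1.19 in GR+/+ and 0.511, 0.368 and 0.369 in GRdim/dim lungs. The kinases together were at 170.6, 165.9 and 115.8 TPM in GR+/+ and at 119.9, 103 and 96.4 TPM in GRdim/dim lungs, which overlap through GR+/+ replicate 3. Scaled as CPM per kilobase with TMM factors in place of TPM, the sums were 53.7, 53.9 and 47.4 in GR+/+ and 38.9, 36.4 and 36.8 in GRdim/dim lungs. On that scale the genotypes did not overlap, so whether the summed kinase level is separate depends on the scaling. Without *Pdk4* the sums of the other 3 were 33.1, 36.3 and 28.7 in GR+/+ and 31.8, 30.4 and 30.0 in GRdim/dim lungs on the same scale, which overlap.

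The phosphatases gave no DEG. *Pdp1* (chr4:11958184-11966452), the calcium-stimulated phosphatase, was at 28.7, 36.5 and 38.5 CPM in GR+/+ and at 30.7, 30.1 and 19.7 CPM in GRdim/dim lungs. GR+/+ replicate 1 lay below GRdim/dim replicates 1 and 2, and GRdim/dim replicate 3 had the lowest level. The log2 fold change was -0.37 (SE 0.22, 95% interval -0.86 to 0.13). *Pdp2* (chr8:104591451-104599026), the insulin-responsive phosphatase, was at 17.9, 21.8 and 24.9 CPM in GR+/+ and at 13.5, 21.5 and 13.1 CPM in GRdim/dim lungs. GRdim/dim replicate 2 was inside the GR+/+ range and the other 2 GRdim/dim libraries were below it, for a log2 fold change of -0.42 (SE 0.25, 95% interval -0.98 to 0.13). The summed level of the kinases over that of the phosphatases, in TPM, was 5.64, 4.53 and 3.67 in GR+/+ and 4.24, 3.49 and 5.51 in GRdim/dim lungs. These ratios overlapped over nearly their whole range, whereas the share of *Pdk4* within the kinases did not overlap.

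*Pdha1* (chrX:160122209-160138413), the subunit that the kinases phosphorylate, was at 96.2, 97.0 and 99.8 CPM in GR+/+ and at 79.8, 71.7 and 77.6 CPM in GRdim/dim lungs. Every GRdim/dim library was below every GR+/+ library. The means were 97.7 ± 1.93 CPM and 76.4 ± 4.16 CPM (SD, n = 3), or 78.2% of the GR+/+ level, with a log2 fold change of -0.36 (SE 0.15, 95% interval -0.68 to -0.03). *Pdha1* was not a DEG, with an edgeR adjusted *p* of 0.477, and its fold is also inside the threshold. The interval is for a single gene and is not adjusted over all genes. Of its transcript sequence, 15.8% of the 31-base windows also occur in other genes, mostly in *Map3k15*, which overlaps it on the opposite strand by 603 bases and had 36 to 129 counts per library. The use of strand in counting is not given in the sources used here.

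*Dlat* (chr9:50634633-50659780) was at 59.4, 64.7 and 65.9 CPM in GR+/+ and at 63.3, 46.3 and 65.0 CPM in GRdim/dim lungs. Only GRdim/dim replicate 2 was outside the GR+/+ range. Its log2 fold change was -0.12 (SE 0.18, 95% interval -0.52 to 0.27), and it was 0.019 without that library. The level of *Pdk4* over that of *Pdha1*, in TPM, was 0.797, 0.680 and 0.697 in GR+/+ and 0.334, 0.313 and 0.326 in GRdim/dim lungs, without overlap. For the 4 kinases together over *Pdha1* the ratio was 2.08, 2.08 and 1.77 in GR+/+ and 1.82, 1.90 and 1.77 in GRdim/dim lungs, with overlap.

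The carrier genes gave no DEG. *Mpc1* (chr17:8282904-8297661) was at 27.1, 33.4 and 29.5 CPM in GR+/+ and at 27.7, 32.0 and 26.4 CPM in GRdim/dim lungs, and *Mpc2* (chr1:165460637-165481214) was at 40.1, 47.4 and 51.0 CPM and at 35.3, 32.7 and 55.3 CPM. Both overlapped, and GRdim/dim replicate 3 held the lowest *Mpc1* and the highest *Mpc2* level of all libraries. The log2 fold change was -0.06 (SE 0.18, 95% interval -0.47 to 0.34) for *Mpc1* and -0.17 (SE 0.23, 95% interval -0.67 to 0.33) for *Mpc2*. *Mpc1* is uncertain, because 30.8% of its 31-base windows occur elsewhere, in the opposite-strand gene 4930506C21Rik and in the pseudogene *Mpc1-ps*, among others. *Mpc1-ps* held 12.2 to 19.9% of the counts of the pair, and the pair together was at 33.4, 38.1 and 36.9 CPM in GR+/+ and at 32.8, 39.5 and 30.1 CPM in GRdim/dim lungs, which overlap as *Mpc1* alone does.

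Per length, *Pdha1* was the highest of the 10 genes in all 6 libraries and *Pdp2* the lowest, with TPM means of 75.7 and 10.8 in GR+/+ lungs. *Pdk4* ranked 2, 3 and 2 in GR+/+ libraries, at a mean of 55.1 ± 9.86 TPM (SD, n = 3), next to *Pdk2* at 57.9 ± 17.9 TPM, from which it did not differ beyond the spread. In GRdim/dim libraries *Pdk4* ranked 6, 7 and 7 at 18.9 ± 2.71 TPM, and *Pdk2*, at ranks 3, 2 and 3 in GR+/+ libraries, was at rank 2 in all 3. The remaining means in GR+/+ lungs were 41.8 TPM for *Mpc1*, 37.5 for *Dlat*, 23.0 for *Pdk3*, 22.0 for *Pdp1*, 18.1 for *Mpc2* and 14.8 for *Pdk1*. This order depends on the length used. With the principal transcript, chosen after the data had been seen, *Mpc2* (1025 bases against 7344 summed exon bases) moved to rank 1 or 2 in every library, and *Pdk4* ranked 5 in GR+/+ and 8 or 9 in GRdim/dim libraries.

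The genes around this step were taken from 7 lists of 70 genes, all of them tested. None was a DEG by edgeR, and at an unadjusted *p* under 0.05 there were 2 higher and 5 lower in GRdim/dim lungs, against 4.91% and 4.68% of all genes and 9.6% in either direction. DESeq2, by which 1.7% of genes were DEGs, called 1 of the 70. The edgeR fit without a filter on low counts, by which 1.66% of all genes were DEGs, called 3. The median log2 fold change of the 70 was -0.03, with 31 above 0 and 39 below. The CPM values of 12 of the 70 did not overlap between genotypes, beside 14.8% of all genes.

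The log2 fold changes of the 3 PDC subunits in the lists lay on the opposite side of 0 from that of *Pdha1*. *Pdhb*, the E1 beta partner of *Pdha1*, was at 86.2, 96.2 and 99.1 CPM in GR+/+ and at 109, 116 and 114 CPM in GRdim/dim lungs (log2 fold change 0.27, edgeR adjusted *p* = 0.623). *Dld*, the E3 subunit, was at 72.8, 84.8 and 81.6 CPM and at 95.3, 97.9 and 101 CPM (0.30, edgeR adjusted *p* = 0.578). *Pdhx*, which anchors E3, was at 20.7, 23.0 and 20.9 CPM and at 24.5, 28.1 and 32.0 CPM (0.39, edgeR adjusted *p* = 0.559). All 3 were higher in each GRdim/dim library than in each GR+/+ library, and none was a DEG. Of all genes tested, 14.8% did not overlap between the genotypes in either direction. The level of *Pdha1* over *Pdhb*, in CPM, was 1.12, 1.01 and 1.01 in GR+/+ and 0.731, 0.620 and 0.683 in GRdim/dim lungs, a ratio chosen after these values had been seen. *Pdpr*, which restrains the phosphatase encoded by *Pdp1*, was at 16.9, 9.77 and 22.2 CPM in GR+/+ and at 10.3, 8.14 and 2.20 CPM in GRdim/dim lungs. Its genotypes overlapped through GR+/+ replicate 2, and the log2 fold change was -1.24 (SE 0.49, edgeR adjusted *p* = 0.460).

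In the list on branched-chain ketoacid dehydrogenase, a related complex, 0 of 5 genes reached an unadjusted *p* under 0.05, and the smallest *p*-values were those of *Bckdhb* (0.323, higher) and *Dbt* (0.112, lower). The same count held for the 6 genes of lipoate and thiamine cofactor supply, where *Lias*, lipoate synthase, had the smallest *p* of the lower genes (0.646). Of 13 genes for pyruvate sources and other fates, 1 reached it, *Me1*, the cytosolic malic enzyme. *Me1* was at 105, 112 and 141 CPM in GR+/+ and at 162, 154 and 171 CPM in GRdim/dim lungs, without overlap (log2 fold change 0.44, edgeR adjusted *p* = 0.444). The lower gene with the smallest *p* there was *Slc16a7*, a monocarboxylate transporter (edgeR adjusted *p* = 0.569). None of the 14 citric acid cycle genes reached it, and the smallest *p* of the higher genes was that of fumarase, *Fh1* (0.0704).

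Among 12 transcriptional regulators of the kinase genes, *Foxo3*, a FOXO factor known to induce *Pdk4*, had the smallest *p*. It was at 159.7, 129 and 132 CPM in GR+/+ and at 98.3, 111 and 81.0 CPM in GRdim/dim lungs. The genotypes did not overlap, and the log2 fold change was -0.53, with an edgeR adjusted *p* of 0.366, so it was not a DEG. *Hif1a*, known to induce *Pdk1*, had the smallest *p* of the higher regulators (0.219).

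Of 16 genes listed as PPAR and FOXO targets often moving with *Pdk4*, none was a DEG, and 1 was higher and 3 lower at an unadjusted *p* under 0.05. *Klf15*, a glucocorticoid-induced transcription factor of fasting metabolism, was at 104, 102 and 94.1 CPM in GR+/+ and at 50.4, 70.1 and 55.7 CPM in GRdim/dim lungs. Its genotypes did not overlap, and the log2 fold change was -0.76 (SE 0.17, edgeR adjusted *p* = 0.164). *Klf15* was the 1 gene of the 70 that DESeq2 called. *Plin2*, a lipid droplet coat protein, was at 139.7, 111 and 141 CPM in GR+/+ and at 161, 162 and 226 CPM in GRdim/dim lungs (0.49, edgeR adjusted *p* = 0.456). *Lpl*, lipoprotein lipase, and *Angptl4*, its inhibitor, were the other 2 at an unadjusted *p* under 0.05, with log2 fold changes of -0.70 and -0.52 (edgeR adjusted *p* = 0.452 and 0.469).

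**Figure D4:**
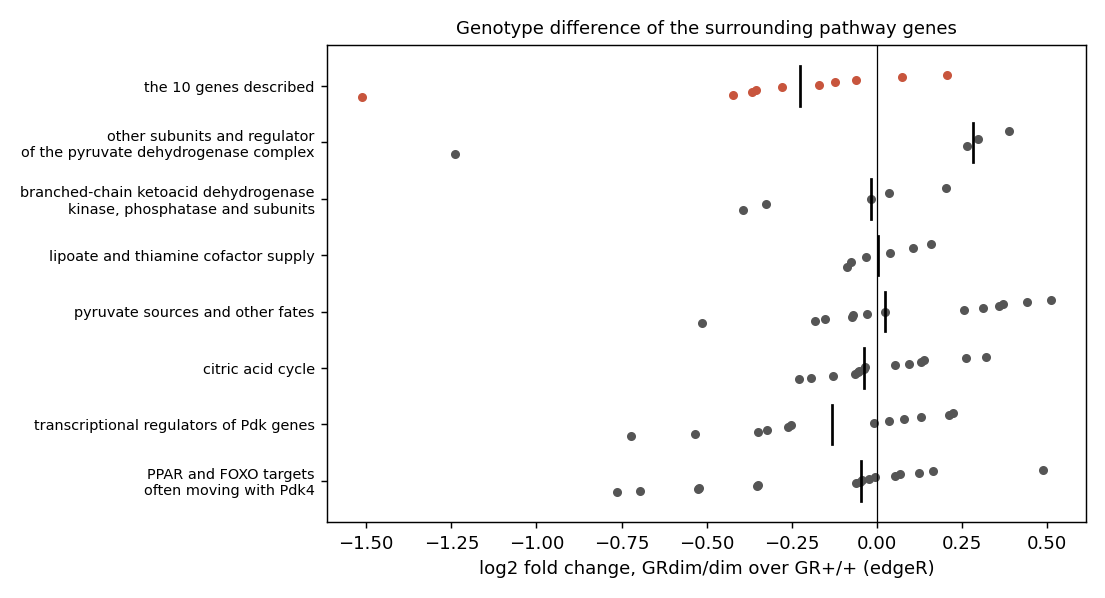
Log2 fold change (horizontal axis), GRdim/dim against GR+/+, of each of the 70 genes in the 7 lists and of the 10 genes described here (red), with 1 point per gene and a short vertical line at each median. *Pdk4*, at -1.51, is the lowest point, followed by *Pdpr* at -1.24, and list medians lie between -0.13 and 0.28.

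The genes most like *Pdk4* across the 6 libraries were chosen by the smallest root-mean-square difference of centred log2 CPM, among 10686 genes with a mean of at least 10 CPM. With only 2 genotypes in 6 libraries, the genotype difference enters this likeness, and it is a description. *Ptgs1*, cyclooxygenase 1, was the closest (difference 0.160), at 117, 118 and 98.0 CPM in GR+/+ and at 45.8, 42.0 and 48.6 CPM in GRdim/dim lungs. *Zfp503* (0.224), a zinc finger repressor of transcription, was at 192, 153 and 141 CPM and at 69.6, 61.6 and 85.3 CPM, and *Klhl29* (0.224) was at 22.9, 14.5 and 17.1 CPM and at 7.98, 5.48 and 8.78 CPM. *Adgrl3* (0.235), an adhesion G protein-coupled receptor, was at 78.7, 75.2 and 59.2 CPM and at 30.2, 24.2 and 18.5 CPM. BC018473 (0.240) was at 85.9, 81.6 and 77.5 CPM and at 41.7, 38.9 and 31.3 CPM. None of the 5 overlapped between the genotypes, beside 14.8% of all genes tested, and their log2 fold changes ran from -1.54 to -1.13. The choice by likeness to *Pdk4* favours both, so nothing is read from them. Of the 4 of them with a promoter window, *Ptgs1* alone held a half-site of the glucocorticoid response element, TGTTCT at -204.

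**Figure D5:**
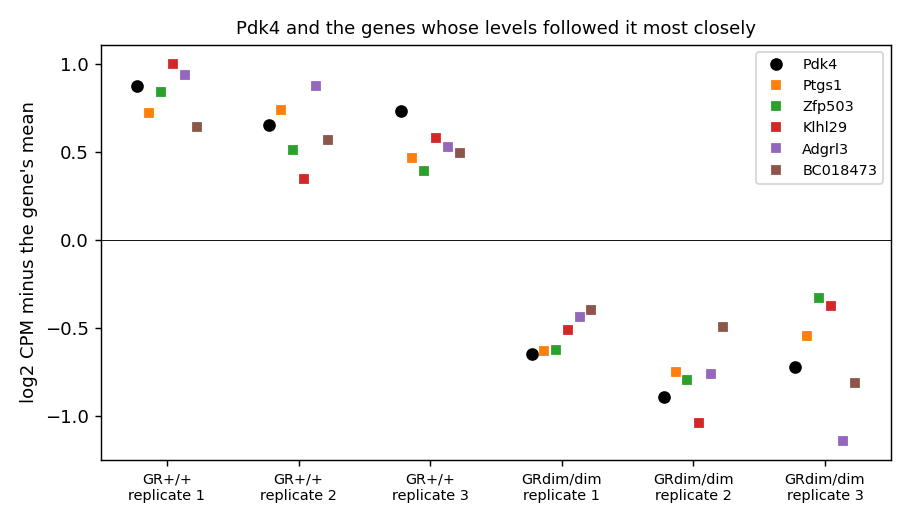
Log2 CPM minus the mean of the gene over the 6 libraries (vertical axis) for *Pdk4* and the 5 genes most like it, in each lung library (horizontal axis). All 6 genes are above 0 in the 3 GR+/+ and below 0 in the 3 GRdim/dim libraries, with *Pdk4* at 0.66 to 0.87 and at -0.89 to -0.65.

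Markers of the cell types of the lung were present in every library. The summed CPM was 15610 to 22988 in GR+/+ and 15380 to 24062 in GRdim/dim lungs for alveolar type 2 cells (led by *Sftpc*), 2669 to 4257 and 2455 to 4168 for alveolar type 1 cells (*Ager*), 15077 to 29504 and 21235 to 27415 for club cells (*Scgb1a1*), and 1622 to 2428 and 2086 to 2300.3 for endothelial cells (*Cdh5*). It was 431 to 541 and 419 to 548 for alveolar macrophages (*Car4*, which lung capillaries also express) and 995 to 3726 and 1433 to 3907 for erythroid cells (*Hbb-bs*). These sums overlapped between the genotypes. Among the endothelial markers, *Cldn5* was at 370 to 442 CPM in GR+/+ and at 535 to 1119 CPM in GRdim/dim lungs, without overlap. The others, *Pecam1*, *Cdh5* and *Tek*, had log2 fold changes of -0.44, -0.20 and -0.12. Within the macrophage list, the markers also differed in direction. *Chil3* was at 244, 250.3 and 264 CPM in GR+/+ and at 161, 156 and 95.6 CPM in GRdim/dim lungs, without overlap. *Marco* was at 12.9 to 34.6 CPM and at 7.55 to 17.8 CPM, and *Car4* at 151, 249.5 and 158 CPM and at 225, 359.9 and 335 CPM, both with overlap. *Ear2* was at 17.2 to 22.0 CPM and at 10.6 to 20.8 CPM, with overlap. *Siglecf* was at 2.70 to 4.35 CPM and at 3.55 to 4.74 CPM, also with overlap. The macrophage sum joins *Chil3* and *Car4*, which differed in direction, so its overlap does not describe each marker. *Pdk4* is abundant in heart, skeletal muscle and fat, which lung samples can hold in part. The cardiomyocyte sum (led by *Myh6*) was 157 to 984 in GR+/+ and 437 to 894 in GRdim/dim lungs, the adipocyte sum (*Plin4*) 21.3 to 86.8 and 14.5 to 61.2, and the skeletal muscle sum (*Ckm*) 4.19 to 14.2 and 8.23 to 22.3, all with overlap. Of these lists, 7 of 8 cardiomyocyte, 4 of 6 adipocyte and 3 of 5 skeletal muscle markers were tested, with median log2 fold changes of 0.36, -0.68 and 0.34, and all 4 adipocyte markers were below 0.

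GR+/+ replicate 3 had the lowest cardiomyocyte and skeletal muscle sums of all libraries and the lowest adipocyte sum of the GR+/+ libraries, and its *Pdk4* level was 65.4 CPM, inside the GR+/+ range. *Ucp1*, a brown fat marker, was at 19.3 CPM in GR+/+ replicate 2 and at most 0.166 CPM elsewhere, and *Pdk4* in that library was at 62.0 CPM, the lowest GR+/+ value. The part of heart, muscle and fat RNA in the level of *Pdk4* was not tested. B cell markers (led by *Ighm*) were higher in every GRdim/dim library, at 123 to 430 against 48.8 to 115 summed CPM, with 4 of 5 higher at an unadjusted *p* under 0.05, beside 4.91% of all genes. Neutrophil markers (*S100a9*) overlapped at 235 to 882 against 193 to 302, with 2 of 4 higher at that level. Among the lists, the smallest *p*-values belonged to *Lamp3*, *Aqp5*, *Scgb1a1*, *Cldn5*, *Sln*, *Tnnt3*, *Car4*, *Ighm*, *Retnlg* and *Hba-a1* of the higher genes and to *Sftpd*, *Pdpn*, *Pecam1*, *Myh6*, *Plin4*, *Mylpf* and *Chil3* of the lower genes. No marker was a DEG by edgeR with the filter on low counts, and DESeq2 called *Cldn5* and *Retnlg* higher and *Chil3* lower (log2 fold changes 0.93, 1.10 and -0.88, DESeq2 adjusted *p* = 0.0273, 0.0225 and 0.0171). Without the filter, edgeR called 7 markers, among them these 3 and *Cd79a*, *Car4* and *S100a9*, and it called *Ighm* without GRdim/dim replicate 1. The part of B cells and neutrophils in the levels of the 10 genes was not tested.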

How the data were processed

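RNA from 6 lungs was poly(A)-captured and sequenced, 1 library per mouse. The authors deposited raw counts of reads per gene, whole numbers without normalization or pooling. The submitters' processing notes name mm10 and DESeq2, and the aligner, counting tool and strand setting are not given in the sources used here. Of the 54532 gene IDs, 54495 are in GENCODE M21. Genotype and replicate number came from the sample titles. The genotypes were compared with edgeR 4.0.16 under R 4.3.3 (TMM, filterByExpr, robust glmQLFit, glmQLFTest), with Benjamini-Hochberg adjustment over 16568 genes. The fit was also run on simulated counts with genes drawn independently, and nothing is read from that run here. CPM used TMM factors, log2 CPM a prior count of 2.

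Alternatives were DESeq2 1.42.0, RLE scaling, no filter or at least 10 counts in every library, a replicate block, a sex-linked expression covariate, no threshold on the fold change, each library left out, and other lengths or scaling for levels per length. The genes named were all 10 members, DEGs and the smallest *p* in each direction of every list, the most abundant marker of each cell type, and the 5 genes most like *Pdk4*. Some genes that this rule names are not reported here. *Pdhb*, *Dld*, *Lpl* and *Angptl4* were named after their values had been seen. The members and lists were chosen with earlier results of these data known. Intervals come from the edgeR fit. Protein sequences were not used here.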

Additional observations from a re-analysis of the deposited data

How the results depend on the processing

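Across 12 alternatives, 114 of the 120 log2 fold changes of the 10 genes kept their direction and their call as a DEG or not. The value for *Mpc1* was 0.021 with the sex-linked expression covariate, against -0.06. With that covariate *Pdp2* and *Pdp1* were both at -0.24, against -0.42 and -0.37, and *Dlat* was at -0.20, against -0.12. The X-linked *Pdha1* and *Pdk3* were at -0.38 and 0.14, against -0.36 and 0.21, and none of these was a DEG. With 1 library left out, *Mpc1* ran from -0.15 to 0.025, *Dlat* from -0.21 to 0.019 and *Pdk3* from -0.058 to 0.38, each with a change of sign in 1 case. Without a change of sign, *Mpc2* ran from -0.44 (without GRdim/dim replicate 3) to -0.028 (without GRdim/dim replicate 2), *Pdp2* from -0.69 (without GRdim/dim replicate 2) to -0.30, *Pdp1* from -0.48 to -0.19 (without GRdim/dim replicate 3), *Pdk2* from -0.42 (without GR+/+ replicate 3) to -0.12 (without GR+/+ replicate 2) and *Pdk1* from 0.021 (without GRdim/dim replicate 2) to 0.15 (without GRdim/dim replicate 3). *Pdk4* ran from -1.59 to -1.44 over all alternatives, and lost its call without GR+/+ replicate 1 or 2, so 0 to 1 of the 10 genes were DEGs with a library left out and 1 otherwise. Of the 70 genes in the lists, 0 were DEGs by edgeR, 1 by DESeq2 (*Klf15*) and 3 without a filter on low counts (*Klf15*, *Lpl* and *Pdpr*). Over all genes there were 28 DEGs by edgeR, 522 without a filter, 274 by DESeq2 and 4 (without GR+/+ replicate 2) to 22 with a library left out. The cause was not tested. The difference in the share of *Pdk4* among the kinases was -21.1 to -16.2 percentage points over all lengths, scalings and libraries left out, and the principal transcript length was an alternative chosen after seeing the data.

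The main fit did not use the replicate numbers as pairs. Same-numbered libraries correlated at 0.218, 0.0361 and -0.0548 in their deviations from the mean of their genotype, and not every library correlated best with its own number. With so few libraries the deviations within a genotype depend on each other, so these correlations cannot decide whether the numbers pair the libraries. With the replicate block there were 34 DEGs over all genes, 1 among the 10, with *Pdk4* at -1.51, and 0 among the 70, and the marker *Ighm* was called. How far depth or the spread between mice limits the precision of each gene was not tested.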
